A study of Mus musculus with 9 samples.

Results

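Messenger RNA of 35 genes that move or bind zinc and copper was followed across 9 RNA sequencing libraries. The titles call the cells HT22, a line derived from mouse hippocampal neurons. The members were chosen by symbol from 54232 entries of the count table: the 10 zinc exporters of the Slc30a family, the 14 zinc importers of the Slc39a family, the 4 metallothioneins, the zinc sensor Mtf1 and 6 copper genes (Slc31a1, Slc31a2, Atp7a, Atp7b, Atox1 and Ccs). Control cells had no intervention. The Hb group was given oxyhemoglobin, the oxygen-carrying pigment of red cells that spills out in a haemorrhage. The Hb+NTR1 group was given oxyhemoglobin and NTR1. The series title writes NGR1 for what the labels call NTR1. Titles and treatment fields of the Hb+NTR1 libraries read ganyu with a replicate number. All 3 groups are labelled wild type (WT), with 3 libraries each. No group received NTR1 alone, so its effect without oxyhemoglobin was not measured, and neither dose nor time is stated by the labels. The labels also give HT-4 as the cell type.

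Zinc in a cell is set by exporters of the SLC30 family, which move it out of the cytosol into vesicles, organelles or the medium, and by importers of the SLC39 family, which move it in. Metallothioneins are small cysteine-rich proteins that bind zinc and copper. In mouse cells the transcription factor MTF1 senses free zinc, binds metal response elements and switches on Mt1, Mt2 and the plasma membrane exporter gene Slc30a1, while it holds down the importer gene Slc39a10. Copper enters through the transporter encoded by Slc31a1 and is handed by chaperones, such as the products of Atox1 and Ccs, to copper pumps and to superoxide dismutase. Hemoglobin carries heme iron, and the study asked what oxyhemoglobin and NTR1 did to these cells.

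The sequences before the starts of Mt1, Mt2 and Slc30a1 are shown because these are the genes that MTF1 is known to activate through metal response elements. They are the 250 bases upstream of the start in the RefSeq promoter table (GRCm38.p6), all on the plus strand: chr8:94178839-94179088 for Mt1, chr8:94172368-94172617 for Mt2 and chr1:191906531-191906780 for Slc30a1. Capitals mark each match to the metal response element core, searched as TGCACNC and TGCGCNC on both strands, so that a match on the opposite strand reads as GNGTGCA or GNGCGCA.
Mt1: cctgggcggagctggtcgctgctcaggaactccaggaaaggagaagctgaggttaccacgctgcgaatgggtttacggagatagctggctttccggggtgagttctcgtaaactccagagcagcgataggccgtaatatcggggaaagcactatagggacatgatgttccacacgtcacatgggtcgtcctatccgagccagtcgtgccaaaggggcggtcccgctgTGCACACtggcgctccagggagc
Mt2: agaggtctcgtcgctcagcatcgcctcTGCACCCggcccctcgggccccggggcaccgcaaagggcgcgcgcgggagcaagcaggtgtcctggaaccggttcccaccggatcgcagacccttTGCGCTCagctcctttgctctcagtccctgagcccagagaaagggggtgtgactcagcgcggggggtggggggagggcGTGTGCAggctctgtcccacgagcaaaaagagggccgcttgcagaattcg
Slc30a1: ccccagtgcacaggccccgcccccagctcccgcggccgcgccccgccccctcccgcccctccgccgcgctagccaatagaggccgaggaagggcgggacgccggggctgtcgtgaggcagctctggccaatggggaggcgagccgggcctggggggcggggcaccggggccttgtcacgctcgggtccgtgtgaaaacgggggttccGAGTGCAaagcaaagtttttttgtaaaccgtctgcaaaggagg

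Over the whole table window of 300 bases, which runs 50 bases past the start, Mt1 held 3 matches, Mt2 held 4 and Slc30a1 held 2. Of the 32851 windows in the table, 25.7% held at least 1 match, 7.11% at least 2, 1.97% at least 3 and 0.517% at least 4. A window was found for 30 members, of which 18 (60%) held at least 1 match and 7 (23.3%) at least 2. Atp7a held 2 matches and Slc31a2 held 1, in a window (chr4:62286179-62286478) inside the gene, which starts at 62262562 in GENCODE M21. Neither window of Slc39a10, nor those of Mtf1, Slc30a6 and Slc30a9, held one. The Slc39a10 windows (chr1:46925727-46926026 and chr1:46853569-46853868) do not cover its GENCODE M21 start at 46892852, so the bases before that start were not searched. No window was listed for Ccs, Slc30a8, Slc39a4, Slc39a6 and Slc39a14. The Mt1 window belongs to the transcript that starts at chr8:94179082 in GENCODE M21, and the other Mt1 transcripts start further along, at 94179211 and 94179241. It ends at 94179138, so the bases just before those later starts were not searched. Matches were found by letters alone and are a description of the windows.

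Total counts per library ran from 13435891 to 16918242. Of the 35 members, 25 passed the filter on low counts and 22 of these reached at least 5 CPM (counts relative to library size, scaled by TMM factors) in at least 1 group. Hb replicate 2 stood apart from the other Hb libraries, as the chi-square over its degrees of freedom was 13 and 10.7 against them, where every other pair within a group gave 2.51 to 5.1. Neuronal identity was not borne out by most of the markers checked: 11 of 14 neuronal markers were under 1 CPM in control and Snap25, Map2 and Gad1 were at 0 in every library. Tubb3, Syn1 and Eno2 went the other way, at 32.6, 24.7 and 11.2 CPM in control. Summed fibroblast markers were high and differed between groups, at 13910 to 14820 CPM (control), 11220 to 12640 CPM (Hb) and 1294 to 1396 CPM (Hb+NTR1). Summed neuronal markers ran from 68.4 to 69.7, from 71.2 to 78.9 and from 36.7 to 40.1 CPM in the same order, and summed astrocyte markers, nearly all Slc1a3, from 199.3 to 229, from 114.6 to 138 and from 8.08 to 9.27 CPM. The fibroblast sum in control was nearly all Col1a2, Col1a1 and Col3a1, at means of 9098, 3624 and 1547 CPM. Pdgfra and Thy1 stood at 109 and 77.4 CPM in control and Dcn at 11.2, while Lum and Fap were under 1 CPM. The part of the marker shifts between groups in the results below was not tested. Whether the 3 libraries of each group are separate cultures is not stated by the labels. The p-values therefore measure the spread between libraries, which may be technical.

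The metallothionein gene Mt1 (chr8:94179082-94180327, GRCm38, plus strand) was the most abundant member per length in all 3 groups. It stood at 169, 173 and 175 CPM in the control libraries, at 142, 166 and 123 in Hb and at 528, 635 and 569 in Hb+NTR1. All 3 Hb+NTR1 libraries lay more than 3 times above any other library. The rise was 4.02-fold over Hb (log2 fold change 2.01 ± 0.0863 SE, edgeR adjusted p = 4.06e-15) and 3.35-fold over control (log2 1.75 ± 0.0852, edgeR adjusted p = 3.21e-14). Of all 13810 genes tested, 1.38% had a log2 fold change at least as high as that of Mt1 in Hb+NTR1 against Hb. In these bulk libraries a change in the number of cells that express a gene and a change in the RNA per cell cannot be told apart.

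The other metallothionein genes lie beside Mt1 on chromosome 8 and gave few reads. Mt2 (chr8:94172664-94173568) had 3, 5 and 2 counts in control, 1, 5 and 4 in Hb and 30, 15 and 10 in Hb+NTR1, so the 3 Hb+NTR1 libraries lay above all others at a level near the floor of detection. It passed the filter on low counts only through the Hb+NTR1 group, where it is high, so its test after that filter is not used and it is left out of the counts of members that rose. Its log2 fold change is given as a description, 2.38 ± 0.573 over Hb and 2.49 ± 0.571 over control. In the fit with no filter on low counts it was 2.37 over Hb (edgeR adjusted p = 0.000519) and 2.47 over control (edgeR adjusted p = 0.000254). The authors' deposited table of Hb+NTR1 against control lists 691 genes, by a test that no source used here names. Their smallest absolute log2 fold change is 2.005 and their largest adjusted p is 0.00994, so members with smaller changes are not listed. Mt2 is the 1 member there, with a log2 fold change of 2.53 and an adjusted p of 0.00234. Of the merged exon bases of Mt2, 73.5% are shared with Gm45774, an antisense gene with 0 to 4 counts per library. No source used here states the strand setting of the counting, so the level of Mt2 is uncertain. Mt3, the metallothionein best known from brain, had 2 counts in all, both in Hb replicate 2, and Mt4, known from squamous epithelium, had 0 counts in every library. A count of 0 allows up to 3 counts, or 0.181 to 0.223 CPM on the scaled libraries, counting error only.

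**Figure D1:**
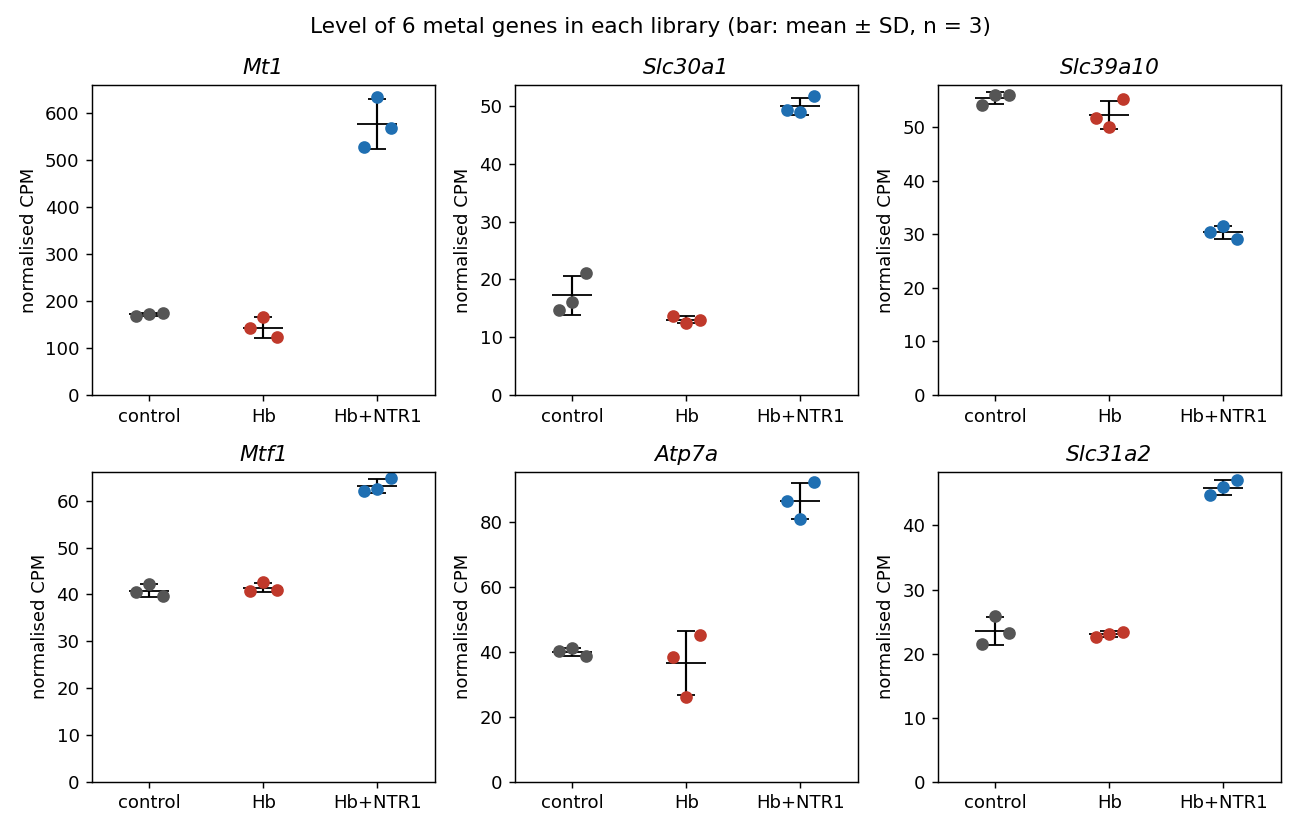
Normalised CPM (vertical axes, starting at 0) of 6 members in each library of control, Hb and Hb+NTR1, with points for libraries and bars for the mean ± SD (n = 3). Mt1, Slc30a1, Mtf1, Atp7a and Slc31a2 were higher in all 3 Hb+NTR1 libraries than in any other, and Slc39a10 was lower.

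Mtf1, which encodes the zinc sensor itself, showed a smaller rise. Its level was 40.5, 42.3 and 39.7 CPM in control, 40.8, 42.6 and 41.0 in Hb and 62.2, 62.5 and 65.0 in Hb+NTR1. Control and Hb overlapped, and the Hb+NTR1 libraries lay above both. The fold change was 1.52 over Hb (edgeR adjusted p = 1.71e-07) and 1.55 over control (edgeR adjusted p = 8.33e-08). Of the Mtf1 exon bases, 8.09% are shared with 1110065P20Rik on the opposite strand, which had 131 to 175 counts in control and Hb and 56 to 70 in Hb+NTR1.

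Among zinc exporters, all 6 that could be tested rose in Hb+NTR1 against Hb and 5 of the 6 rose against control. For the members tested other than Mt2, 15 of 24 rose and 3 fell in Hb+NTR1 against Hb, where 62.3% of all 13810 genes tested passed the same threshold of adjusted p under 0.05 (30.7% higher and 31.6% lower). Against control 13 rose and 3 fell, where 63.6% of all genes passed (31.4% higher and 32.2% lower). Being called was therefore common to most genes in these comparisons. The members' share of calls in either direction, 75% and 66.7%, was near that background. By direction most of the members' calls were rises, while calls over all genes were split about evenly. This difference in direction was not tested. With a change of at least 1.5-fold required as well, 8 rose and 2 fell against Hb, where 32.6% of all genes passed (14.4% higher and 18.2% lower), and 7 rose and 2 fell against control, where 34.1% passed (15.6% higher and 18.5% lower). The median log2 fold change of the same 24 members was 0.30 over Hb and 0.43 over control, against -0.011 and -0.0042 over all genes tested. Both comparisons use the same 3 Hb+NTR1 libraries and are not independent of each other.

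Slc30a1 (chr1:191906767-191913247, GRCm38, plus strand) encodes ZnT1, the exporter of the plasma membrane. It had 14.7, 16.02 and 21.1 CPM in control, 13.6, 12.4 and 12.9 in Hb and 49.3, 49.0 and 51.7 in Hb+NTR1. The Hb+NTR1 libraries agreed closely with one another and lay far above both other groups. The rise was 3.85-fold over Hb (log2 1.94 ± 0.112, edgeR adjusted p = 3.96e-13) and 2.91-fold over control (log2 1.54 ± 0.108, edgeR adjusted p = 1.21e-11). Only 1.54% of all genes tested had a log2 fold change at least as high over Hb. Of its exon bases, 8.92% are shared with the antisense gene 1700034H15Rik, which had 3 to 12 counts per library.

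Slc30a5 and Slc30a6 encode partners that form a complex and load zinc into the early secretory pathway. Slc30a6 had 17.2, 18.6 and 16.8 CPM in control, 18.5, 19.6 and 18.4 in Hb and 37.0, 33.4 and 35.0 in Hb+NTR1. Slc30a5 had 75.4, 77.0 and 69.7 CPM in control, 74.2, 79.5 and 78.1 in Hb and 105, 101 and 104 in Hb+NTR1. Both rose without overlap, Slc30a6 by 1.86-fold over Hb (edgeR adjusted p = 1.64e-08) and Slc30a5 by 1.34-fold (edgeR adjusted p = 8.79e-06). Slc30a9, whose product carries zinc out of mitochondria, had 108, 108 and 104 CPM in control, 112, 114 and 115 in Hb and 192, 184 and 192 in Hb+NTR1. Its rise was 1.67-fold over Hb (edgeR adjusted p = 1.89e-10) and 1.77-fold over control (edgeR adjusted p = 2.5e-11).

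Slc30a4, which moves zinc into endosomes and lysosomes, was the exporter with the highest level per length. It stood at 155, 164 and 158 CPM in control, at 181, 176 and 199.9 in Hb and at 222, 212 and 233 in Hb+NTR1, so the 3 groups did not overlap. The fold change was 1.2 over Hb (edgeR adjusted p = 0.00117) and 1.4 over control (edgeR adjusted p = 5.98e-07). Slc30a7, an exporter of the Golgi, had 73.9, 73.1 and 72.8 CPM in control, 65.8, 60.1 and 68.7 in Hb and 80.9, 83.1 and 79.2 in Hb+NTR1. Its level passed the test over Hb (1.25-fold, edgeR adjusted p = 0.000348) but not over control (1.11-fold, edgeR adjusted p = 0.0716), where it passed with library totals alone (0.0129) and with only the 6 libraries compared (0.0307). The remaining exporters were at or near 0. Slc30a2, Slc30a8 (the exporter of insulin granules) and Slc30a10 (which carries manganese) had 0 counts in every library, and Slc30a3, the exporter of synaptic vesicles, had 0 to 6 counts.

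**Figure D2:**
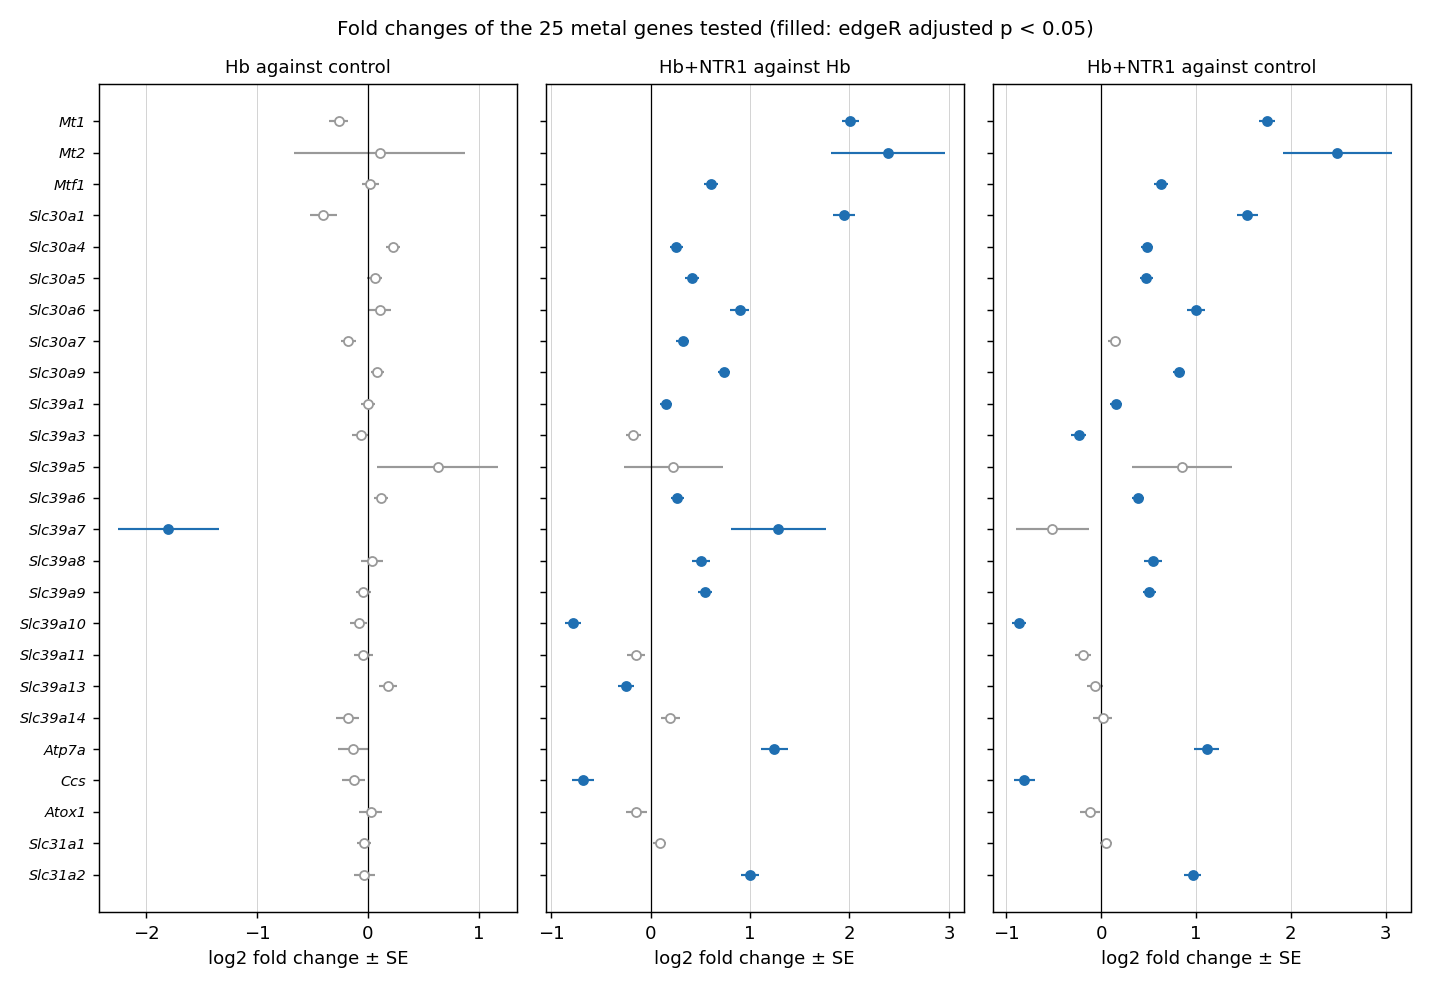
Log2 fold change ± SE (horizontal axes, of different range in each panel) of the 25 members tested, for Hb against control, Hb+NTR1 against Hb and Hb+NTR1 against control. Filled points passed edgeR adjusted p under 0.05. With Hb alone 1 of 25 passed, where 3.65% of all genes tested passed. In Hb+NTR1 against Hb the exporters all lie to the right of 0 while the importers lie on both sides. Mt2 passed the filter on low counts only through Hb+NTR1, where it is high.

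Single zinc importers moved in both directions. Of 11 tested, 5 rose and 2 fell in Hb+NTR1 against Hb, and 4 rose and 2 fell against control, with a median log2 fold change of 0.20 and 0.017. The share called was 63.6% and 54.5%, near or below the 62.3% and 63.6% of all genes. Slc39a10 (chr1:46807544-46892852, GRCm38, minus strand), an importer of the plasma membrane, fell. It had 54.1, 56.1 and 55.998 CPM in control, 51.7, 50.03 and 55.2 in Hb and 30.4, 31.6 and 29.2 in Hb+NTR1. The lowest library outside Hb+NTR1 lay well above the highest within it. The decrease was 1.72-fold against Hb (log2 -0.78 ± 0.0792, edgeR adjusted p = 8.28e-09) and 1.82-fold against control (log2 -0.86 ± 0.0787, edgeR adjusted p = 1.29e-09). Of all genes tested, 14.3% had a log2 fold change at least as low against Hb.

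Slc39a6, whose product pairs with that of Slc39a10 in the membrane, moved the opposite way. It had 124, 136 and 137 CPM in control, 140.3, 150.1 and 139 in Hb and 170.1, 169 and 178 in Hb+NTR1, a rise of 1.21-fold over Hb (edgeR adjusted p = 0.000765). Slc39a9, an importer of the Golgi, had 63.3, 68.7 and 61.8 CPM in control, 61.5, 62.4 and 64.6 in Hb and 92.7, 91.0 and 92.1 in Hb+NTR1. For Slc39a9 the rise over Hb was 1.46-fold (edgeR adjusted p = 2.39e-07), and 4.52% of its exon bases are shared with Erh on the opposite strand. Slc39a8, which carries zinc, manganese, iron and cadmium, had 20.1, 21.2 and 22.6 CPM in control, 20.98, 22.1 and 22.3 in Hb and 31.7, 31.5 and 29.9 in Hb+NTR1. In each of these 3 importers the Hb+NTR1 libraries lay above the other 6, and for Slc39a8 the rise over Hb was 1.42-fold (edgeR adjusted p = 4.51e-05).

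Changes in the other importers were small or rested on few reads. Slc39a1, the most abundant importer per length, had 123, 115 and 120.2 CPM in control, 118, 119 and 122 in Hb and 126, 139.8 and 133 in Hb+NTR1. Its 1.11-fold rise over Hb passed (edgeR adjusted p = 0.0383) but missed in 5 of 14 other settings, within a range of 0.0168 to 0.158. Slc39a13, an importer of the Golgi, had 47.9, 47.1 and 48.5 CPM in control, 59.5, 54.3 and 48.8 in Hb and 49.0, 44.0 and 44.1 in Hb+NTR1. Hb and Hb+NTR1 overlapped here, and the decrease of 1.19-fold against Hb (edgeR adjusted p = 0.0126) missed without Hb replicate 1 or Hb+NTR1 replicate 2 or 3, at up to 0.0749 in a range that began at 0.00279. Of its exon bases, 4.42% are shared with Psmc3 on the opposite strand, an abundant gene with 2353 to 2955 counts. Slc39a3, an importer of the plasma membrane, had 49.7, 47.6 and 51.8 CPM in control, 46.5, 48.6 and 47.5 in Hb and 41.7, 43.6 and 41.3 in Hb+NTR1. It passed as lower against control (1.18-fold, edgeR adjusted p = 0.00948) and not against Hb (edgeR adjusted p = 0.0547). The call against control ended without control replicate 3 (edgeR adjusted p = 0.0514) and with library totals alone (0.0521). The metal importer Slc39a14, which also carries iron, and Slc39a11 did not pass in any of the 3 comparisons, at means of 29.8 to 37.3 CPM over the groups. Slc39a14 passed as higher against Hb without Hb replicate 1 (edgeR adjusted p = 0.0234), and Slc39a11 as lower against control with only the 6 libraries compared (edgeR adjusted p = 0.0283). Slc39a5 was tested at means of 0.445 to 0.834 CPM and did not pass. Slc39a2, Slc39a4 (the zinc importer of the intestine) and Slc39a12 had at most 9 counts in any library and were not tested.

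**Figure D3:**
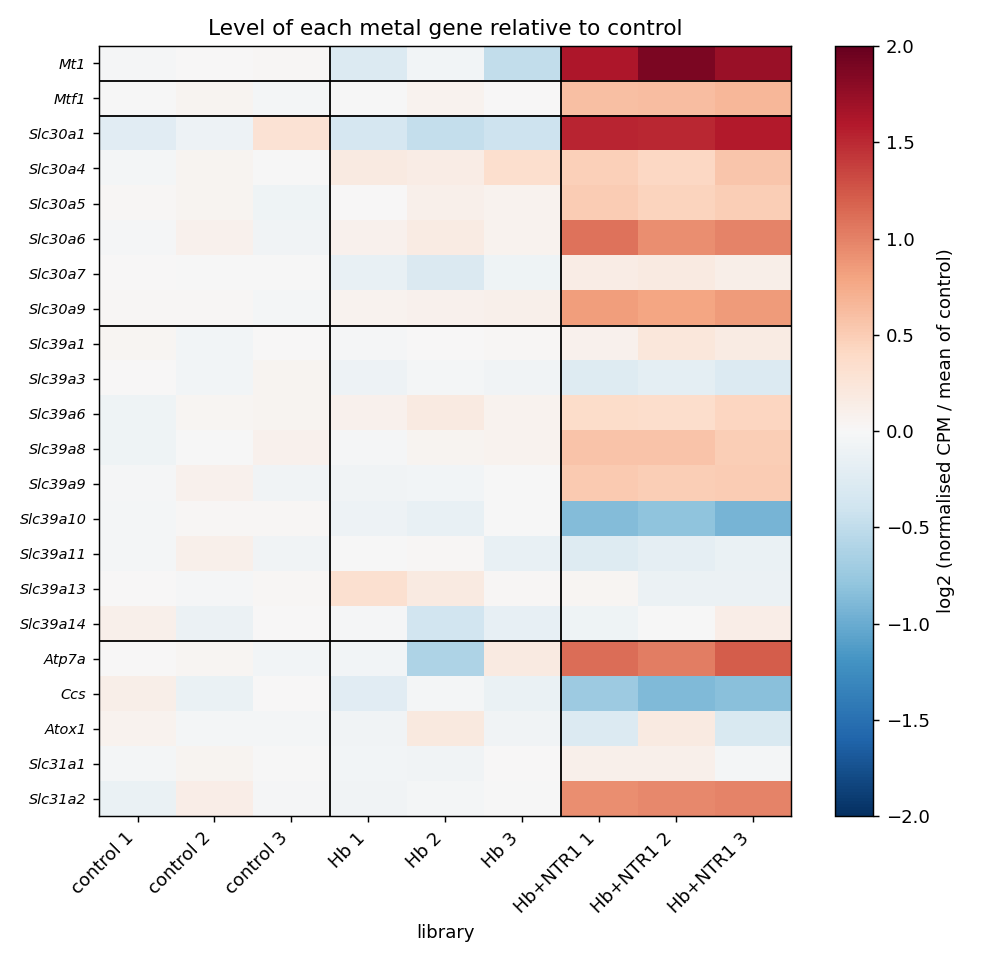
Level of the 22 members with at least 5 CPM in at least 1 group, as log2 of normalised CPM over the control mean (colour), by library (columns) and gene (rows, grouped by role from metallothionein and sensor to exporters, importers and copper genes). The Hb columns are close to control, and in the Hb+NTR1 columns Mt1 and Slc30a1 are furthest above it and Slc39a10 and Ccs furthest below.

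Of 5 copper genes tested, 2 rose and 1 fell in both comparisons of Hb+NTR1, a share of 60% where 62.3% and 63.6% of all genes passed. Atp7a, the copper pump that loads enzymes of the secretory pathway and exports copper, had 40.2, 41.2 and 38.7 CPM in control, 38.6, 26.0 and 45.3 in Hb and 86.5, 81.0 and 92.3 in Hb+NTR1. The low Hb value is that of replicate 2, the library that stood apart. The rise was 2.37-fold over Hb (log2 1.25 ± 0.133, edgeR adjusted p = 4.46e-07), and without Hb replicate 2 the log2 fold change was 1.05 (edgeR adjusted p = 3.16e-14, within a range of 7.15e-44 to 3.33e-05 over 14 settings). Slc31a2, which encodes a copper transporter of endosomes and lysosomes, had 21.6, 25.9 and 23.2 CPM in control, 22.5, 23.0 and 23.4 in Hb and 44.7, 46.0 and 47.1 in Hb+NTR1. Its rise over Hb was 2-fold (log2 1.00 ± 0.0896, edgeR adjusted p = 1.10e-09). Slc31a1, the gene of the main copper importer, lies beside it on chromosome 4 and did not pass, at 156 ± 5.18, 153 ± 4.56 and 163 ± 8.40 CPM (SD, n = 3).

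Ccs, the chaperone that delivers copper to superoxide dismutase 1, fell. Its level was 22.04, 18.7 and 20.5 CPM in control, 17.4, 19.8 and 18.7 in Hb and 12.3, 11.1 and 11.5 in Hb+NTR1. No Hb+NTR1 library reached the range of the other groups, and the decrease was 1.60-fold against Hb (log2 -0.68 ± 0.114, edgeR adjusted p = 1.54e-05). Atox1, the chaperone that feeds the copper pumps, had 51.8, 47.9 and 48.0 CPM in control, 47.0, 56.3 and 47.0 in Hb and 40.6, 55.7 and 40.1 in Hb+NTR1. For Atox1 the groups overlapped and the difference from Hb did not pass (edgeR adjusted p = 0.255). Without Hb+NTR1 replicate 2, its high library, Atox1 passed as lower (edgeR adjusted p = 0.00969), and over 14 other settings the adjusted p ran from 0.00969 to 0.706. Atp7b, the copper pump of liver, had 0 to 4 counts and was not tested.

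With oxyhemoglobin alone few genes passed, among the members as over all genes. In Hb against control 1 of 25 members (4%) passed, near the 3.65% of all genes tested (1.88% higher and 1.77% lower). That background moved with single libraries, to 7.9% without Hb replicate 2, 2% without control replicate 2 and 2.01% without control replicate 3. At 1.5-fold or more as well it was again 1 of 25, where 1.04% of all genes passed (0.492% higher and 0.543% lower). The member was Slc39a7, an importer that releases zinc from the endoplasmic reticulum and Golgi, named here after its values were seen because it lies under 5 CPM. It had 17, 33 and 22 counts in control, 3, 6 and 10 in Hb and 18, 13 and 17 in Hb+NTR1, so Hb lay below both other groups. The log2 fold change was -1.80 ± 0.453 in Hb against control (edgeR adjusted p = 0.0234) and 1.29 ± 0.479 in Hb+NTR1 against Hb (edgeR adjusted p = 0.0230). The first call ended without control replicate 2 or 3 or Hb replicate 1, at adjusted p = 0.163, 0.0701 and 0.125, within a range of 0.00802 to 0.163 over 14 settings. The second ended without Hb replicate 1 or 2 or Hb+NTR1 replicate 1 or 3, at 0.115, 0.0533, 0.0693 and 0.0623, within a range of 0.0100 to 0.115. Of the exon bases of Slc39a7, 80.7% are shared with Gm20427 on the same strand, an entry with 0 counts in every library, so its level depends on how reads common to both were counted, which no source used here states.

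Mt1 and Slc30a1 were below control in all 3 Hb libraries without passing the test. For Mt1 the log2 fold change was -0.26 ± 0.0852 (edgeR adjusted p = 0.101) and for Slc30a1 it was -0.40 ± 0.121 (edgeR adjusted p = 0.0658). Without Hb replicate 2, whose Mt1 level was the highest of the Hb group, the value for Mt1 was -0.38 (edgeR adjusted p = 0.000356). Without Hb replicate 3, its lowest library, it was -0.16 (edgeR adjusted p = 0.329), and Mt1 passed in 3 of 14 other settings. Without control replicate 1, Slc30a1 stood at -0.51 (edgeR adjusted p = 0.0283), and without control replicate 3, the high control library, at -0.24 (edgeR adjusted p = 0.393). It passed in 4 of 14 other settings, within a range of 0.0266 to 0.393. Slc30a4 was higher in all 3 Hb libraries than in control, at log2 0.22 ± 0.0647 (edgeR adjusted p = 0.0550). This gene passed in 4 of 14 other settings, among them without Hb replicate 2 (edgeR adjusted p = 0.00453), within a range of 0.00453 to 0.219. Mtf1 overlapped between control and Hb (edgeR adjusted p = 0.922), as did Slc39a10 (0.642), Slc31a1 (0.837) and Slc31a2 (0.908).

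Between genes, levels were compared per kilobase of merged exons. In control Mt1 stood at 138 CPM per kilobase, followed by Atox1 at 91.1, Slc39a1 at 50.5, Slc31a1 at 36.5, Slc39a6 at 32.4 and Slc30a4 at 29.0. In Hb+NTR1 Mt1 reached 463 CPM per kilobase and the next 2 genes were again Atox1 and Slc39a1, at 84.0 and 56.3. Slc30a1 held rank 20 of 35 in control, at 3.29, and rank 14 in Hb+NTR1, at 9.54. Merged exons of Mt1 span 1246 bases, while its annotated transcripts are 549, 633 and 1085 bases long, so its level per length would be higher on any single transcript.

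**Figure D4:**
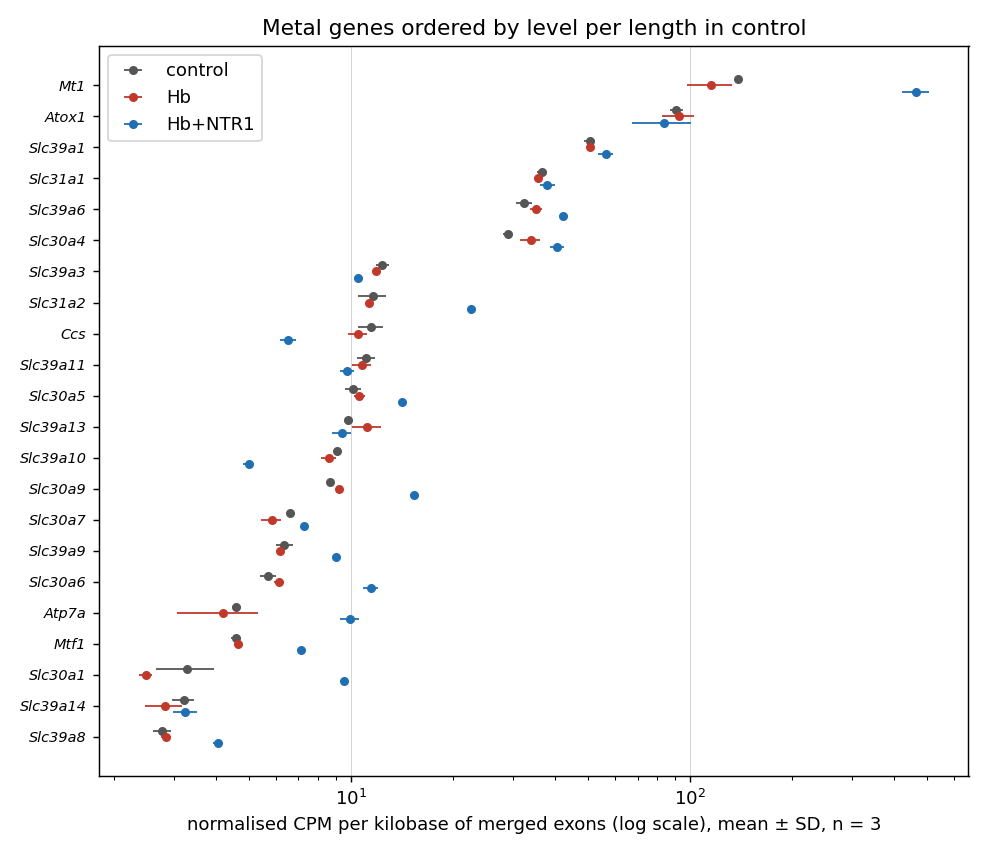
Normalised CPM per kilobase of merged exons (horizontal axis, log scale), mean ± SD over 3 libraries of each group, for the 22 members at 1 or more in control, ordered by the control level. Mt1 leads in all groups, and Slc30a1 moves from near the bottom to the middle of the order in Hb+NTR1.

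Genes outside the membership that MTF1 is known to influence in mouse did not move in 1 direction. Of 6 listed, 5 were tested, and 2 rose and 2 fell in Hb+NTR1 against Hb, where 62.3% of all genes passed. Gclc, the catalytic subunit of glutathione precursor synthesis, rose from 102 ± 1.09 to 199.7 ± 3.38 CPM. Csrp1, a cytoskeletal LIM protein gene, rose from 43.0 ± 2.504 to 50.7 ± 4.83 CPM. Both falls were of similar size, Selenow, a selenoprotein gene, going from 26.9 ± 2.998 to 16.4 ± 1.61 CPM and Ndrg1, a stress-responsive gene, from 90.1 ± 6.06 to 55.5 ± 3.69 CPM. The median log2 fold change of this list was -0.017, against -0.011 over all genes. In Hb against control 1 of the 5 passed, where 3.65% of all genes passed. It was Gclc, up from 68.4 ± 5.88 CPM.

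By edgeR 0 of 10 tested genes of copper delivery to mitochondria passed in Hb against control, where 3.65% of all genes passed. In Hb+NTR1 against Hb 4 were higher and 3 lower (median log2 0.12), near the 30.7% higher and 31.6% lower of all genes. Cox19 and Cox17, which serve the assembly of cytochrome oxidase, rose from 24.5 ± 1.48 to 38.7 ± 2.42 CPM and from 1.79 ± 0.495 to 4.39 ± 1.22 CPM. Slc25a3, the mitochondrial carrier of phosphate and copper, fell from 799.6 ± 37.0 to 493 ± 9.80 CPM. Commd1, a regulator of copper export, fell from 8.01 ± 2.33 to 5.11 ± 0.506 CPM.

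Copper enzymes, reductases and copper-binding proteins had 3 higher and 9 lower of 14 tested in Hb+NTR1 against Hb, with a median log2 fold change of -0.41, where 62.3% of all genes passed (30.7% higher and 31.6% lower). Lox, the copper enzyme that crosslinks collagen, fell from 2199 ± 156 to 91.0 ± 11.9 CPM, and Cp, the plasma copper oxidase ceruloplasmin, from 112 ± 21.1 to 4.54 ± 0.374 CPM. Aoc3, a copper amine oxidase, fell from 5.09 ± 0.0935 to 1.35 ± 0.343 CPM. Prnp, which encodes the copper-binding prion protein, rose from 73.2 ± 3.85 to 215 ± 7.81 CPM. In Hb against control 1 of 14 rose and 3 fell, where 3.65% of all genes passed. These were Steap3, a metal reductase, from 119 ± 5.65 to 145 ± 8.38 CPM and Lox, Loxl1 and Loxl3, with Lox going from 3007 ± 64.6 to 2199 ± 156 CPM. Of 6 fibroblast markers tested, all fell in Hb+NTR1 against Hb, where 31.6% of all genes fell. In Hb against control 3 fell, where 1.77% of all genes did. The part of these markers in the change of Lox, a matrix enzyme that fibroblasts make, was not tested.

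Of 10 genes of protein lipoylation and copper-dependent death tested, 1 rose and 2 fell in Hb+NTR1 against Hb, where 62.3% of all genes passed. The lipoyl transferase gene Lipt2 rose from 3.89 ± 0.494 to 7.30 ± 1.42 CPM, while Lipt1 fell from 5.57 ± 1.74 to 2.89 ± 0.572 CPM and Gcsh, the lipoylated protein of glycine cleavage, from 99.2 ± 11.2 to 63.1 ± 4.37 CPM. Of 3 other zinc genes tested, the zinc metallochaperone gene Cbwd1 rose from 17.4 ± 0.743 to 36.3 ± 2.36 CPM and the cation channel gene Trpm7 from 205 ± 18.6 to 322 ± 15.2 CPM. The zinc receptor gene Gpr39 had 17, 7 and 5 counts in control, 0, 5 and 3 in Hb and 14, 18 and 15 in Hb+NTR1. It passed the filter on low counts through Hb+NTR1, so its test against Hb is not used, and against control it did not pass (edgeR adjusted p = 0.167).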

How the data were processed

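Messenger RNA was selected by poly(A) and made into libraries with a NEBNext Ultra II kit, per the labels' protocols. The submitters' processing notes list HTSeq 0.10.0, HISAT2 2.1.0, bcl2fastq 2.19.1.403 and the GRCm38 build. No source used here states the annotation release, the strand setting or how reads shared by genes were handled. The deposited table holds raw counts per symbol for 9 libraries, not normalised by the authors, and its 98 exact repeats of an entry were removed. The authors' deposited comparison table gives each listed gene's p-value, raw and adjusted, and its log2 fold change for Hb+NTR1 against control, from a test that no source used here names. Columns beginning with N were taken as Hb+NTR1, since that table has N and C columns and no others.

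Counts were analysed with edgeR 4.0.16 in R 4.3.3: filterByExpr with a minimum count of 10 left 13810 genes, libraries were scaled by TMM, and all 9 entered 1 robust quasi-likelihood fit by group. Each comparison was tested two-sided, with Benjamini-Hochberg adjustment over all genes tested and a threshold of 0.05. SE is the size of the log2 fold change over the square root of F. The fit was also run on simulated counts with few genes changed, equally up and down. Most genes were called in the Hb+NTR1 comparisons, so that run does not test the scaling there. Levels are TMM-scaled CPM (counts relative to library size). The alternatives were DESeq2 1.42.0, other scalings and filters, a 1.5-fold threshold, fewer libraries and a replicate block. Positions, merged exons and overlaps came from GENCODE M21 (GRCm38), with all 35 members found.

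The members and lists were chosen with earlier results of these data known. Mt1, Mt2, Slc30a1, Mtf1 and each member called in any comparison with at least 5 CPM in a group have their values given in every library, and up to 4 called genes are named per related list.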

Additional observations from a re-analysis of the deposited data

How the results depend on the processing

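Mt2 is left out here except where it is stated as counted, since its test after the filter on low counts is not used. The 18 other members called in Hb+NTR1 against Hb passed under every other scaling, filter, test and library set, except Slc39a1, Slc39a13 and Slc39a7. The 16 other members called in Hb+NTR1 against control did so too, except Slc39a1 and Slc39a3. Calls gained in some setting were Atox1 and Slc39a14 against Hb and Atox1, Slc30a7 and Slc39a11 against control. No call turned direction in any setting run. With Mt2 counted, a threshold of at least 1.5-fold as well left 11 members against Hb, where 32.6% of all genes passed. Against control it left 10 members, where 34.1% of all genes passed. Without Mt2, 8 rose and 2 fell against Hb, and 7 rose and 2 fell against control. With 1 library left out and Mt2 counted, the numbers of members ran from 16 to 19 against Hb, where 55.7% to 60.5% of all genes passed. Against control they ran from 15 to 17, where 56.6% to 57.9% of all genes passed.

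In Hb against control the count of 1 member moved with most choices. It was 2 with library totals alone (4.15% of all genes), 3 with no filter on low counts (2.17%), 3 by DESeq2 (3.91%) and 0 to 3 with 1 library left out (2% to 7.9%). Of these, 0 was reached without replicate 2 or 3 of control or replicate 1 of Hb, and 3 without Hb replicate 2, where 7.9% of all genes passed. The cause was not tested. With replicate number as a block it was 4, adding Mt1 (edgeR adjusted p = 0.0201), Slc30a1 (0.037) and Slc30a4 (0.0345), and 645 of all genes passed in place of 504. The labels do not say whether same-numbered libraries share a culture or day. Deviations of same-numbered libraries from their group means correlated at -0.0488 to 0.0953 over all comparisons, and not every library correlated best with its own number. With 3 libraries a group, such values cannot decide whether a number marks a pair. Depth limits the 13 members under 5 CPM in every group, Mt2 and Slc39a7 among them.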
